A study of Mus musculus with 6 samples.

Results

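The genes described here belong to the muscle blood vessels and to the signals that build them. They are the growth factor genes Vegfa and Vegfb, their receptor genes Flt1 and Kdr, the endothelial surface and junction genes Pecam1 and Cdh5, the clotting protein gene Vwf, and the angiopoietin system of Angpt1, Tek and Tie1. The members were chosen by symbol, and all 10 were found among the 33641 gene symbols of the expression table, in 54 of its 105129 isoform rows. The libraries were made from the quadriceps, a large thigh muscle, of male mice aged 4 months that were littermates from heterozygous parents and were sampled about 4 hours into the light phase (ZT4). In 3 libraries both copies of the glucocorticoid receptor gene Nr3c1 were the mouse counterpart of the human rs6190 allele (homozygous). In the other 3 both copies were the reference allele (WT). No drug or other treatment is given in the labels for either genotype. The allele is carried by the whole animal, so fibres, vessels and blood cells of a homozygous mouse all have it. The labels give no litter for a library and do not say that each library is a separate animal, so the p-values below measure only the spread between these libraries.

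VEGF-A is made largely by the muscle fibres themselves and is the main signal for capillary growth in skeletal muscle. It signals through KDR on endothelial cells, whereas FLT1 binds VEGF-A tightly but signals weakly and is known as a decoy, most plainly in its secreted soluble form. VEGF-B binds FLT1 and not KDR, and is abundant in oxidative tissues. In a separate system, angiopoietin 1 from cells around the vessel activates TEK on the endothelium and keeps capillaries quiescent, with TIE1 as a partner receptor that binds no angiopoietin strongly by itself. PECAM1 and VE-cadherin (Cdh5) join endothelial cells to each other, and von Willebrand factor (Vwf) is stored in endothelial cells and in platelets.

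Values are TPM, a transcript abundance divided by transcript length and scaled to a fixed total per library, so levels may be set against each other between genes. TPM hold no depth, and the steps between low values gave an estimate of 15.8 to 21.8 M fragments (M, 1000000) per library. As a check of the tissue, 4 muscle genes, among them Acta1 and Ckm, summed to 40598 to 63047 TPM per library. The WT library of replicate 3 stood apart from the others. Of the 11099 genes tested it was the lowest library for 55.8%, its genes of the longest transcripts (over 4985 nt) had a median deviation of -0.48 on the log2 scale against -0.06 to 0.26 in the other 5 libraries, and its summed slow-fibre markers were 246 TPM against 1124 to 9726 TPM in the other 5. Its summed fast-fibre markers held 263701 of its 1000000 TPM, against 107831 to 148804 in the other 5. Over all genes tested, 85.8% had a fold change above 0 (homozygous against WT), and what part these features had in that was not tested. The median fold change of all genes was 0.26 (log2), and the members are read against it.

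Several members have alternative forms that differ at a splice junction and encode different proteins, and these junctions are shown because the rows that carry them are compared further on. Each line holds 20 bases on either side of the junction, 5′ to 3′ in the sense of the gene, from GENCODE M21 transcripts (GRCm38). The lower-case bases are shared by the forms of a gene, and the capitals are the bases where a form goes its own way. The Vegfa exon end is at chr17:46024065 on the minus strand, and the short form continues in the last exon, the middle form in an exon of 132 nt, and the long form in an added exon of 72 nt that encodes part of the stretch by which VEGF-A binds heparan sulfate.
Vegfa short form: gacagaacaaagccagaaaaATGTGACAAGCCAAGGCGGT
Vegfa middle form: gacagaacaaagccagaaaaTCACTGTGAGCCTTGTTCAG
Vegfa long form: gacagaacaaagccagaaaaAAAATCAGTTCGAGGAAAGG
The Vegfb exon end is at chr19:6985805 on the minus strand, and the long form holds 101 nt that the short form skips, which moves the reading frame at its end.
Vegfb short form: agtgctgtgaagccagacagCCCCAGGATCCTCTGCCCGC
Vegfb long form: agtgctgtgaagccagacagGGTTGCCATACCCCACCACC
The Flt1 exon end is at chr5:147639225 on the minus strand, and the soluble form reads on into the intron, so that its coding sequence ends after 688 codons in place of 1333.
Flt1 membrane form: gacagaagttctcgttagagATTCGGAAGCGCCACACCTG
Flt1 soluble form: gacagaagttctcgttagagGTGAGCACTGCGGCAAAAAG
The Tek exon end is at chr4:94798721 on the plus strand, and 1 form skips the next exon, a cassette exon of 153 nt that holds 51 codons.
Tek with the cassette exon: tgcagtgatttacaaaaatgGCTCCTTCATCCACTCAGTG
Tek without the cassette exon: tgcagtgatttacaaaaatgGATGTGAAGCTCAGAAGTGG
The Tie1 exon end is at chr4:118479613 on the minus strand, and 1 form retains the following intron of 460 nt, which shortens its coding sequence from 1134 to 647 codons.
Tie1 spliced form: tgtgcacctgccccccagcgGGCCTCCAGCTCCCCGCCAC
Tie1 retained-intron form: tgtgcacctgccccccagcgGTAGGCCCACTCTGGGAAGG

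At the level of whole genes, no endothelial or capillary member passed the test between the genotypes. In limma's moderated test on log2(TPM + 1), 0 of 10 members passed an adjusted p under 0.05, beside 0% of all genes tested, and 0 of 10 had an unadjusted p under 0.05, beside 24.3% of all genes (23.7% higher and 0.55% lower). Fold changes were above 0 for 9 members and below 0 for Vegfa alone, against 85.8% above 0 over all genes. The median over the members was 0.25 (log2), and 4 of the 10 lay above the all-gene median of 0.26. Without WT replicate 3 the medians were 0.11 and 0.20, and without WT replicate 2 the members' median was 0.22 and 1 of the 10 lay above the all-gene median. The largest fold change was 0.49 for Angpt1 and the lowest -0.08 for Vegfa. The 95% intervals of 9 members lay within 1 log2 unit either way, and that of Angpt1 reached 1.24. Homozygous and WT values overlapped for 9 members, and for Pecam1 every homozygous library lay above every WT library, which was so for 34.7% of all genes (35.5% with those in either direction). For 7 of the 10 members the lowest of all libraries was the WT library of replicate 3.

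**Figure D1:**
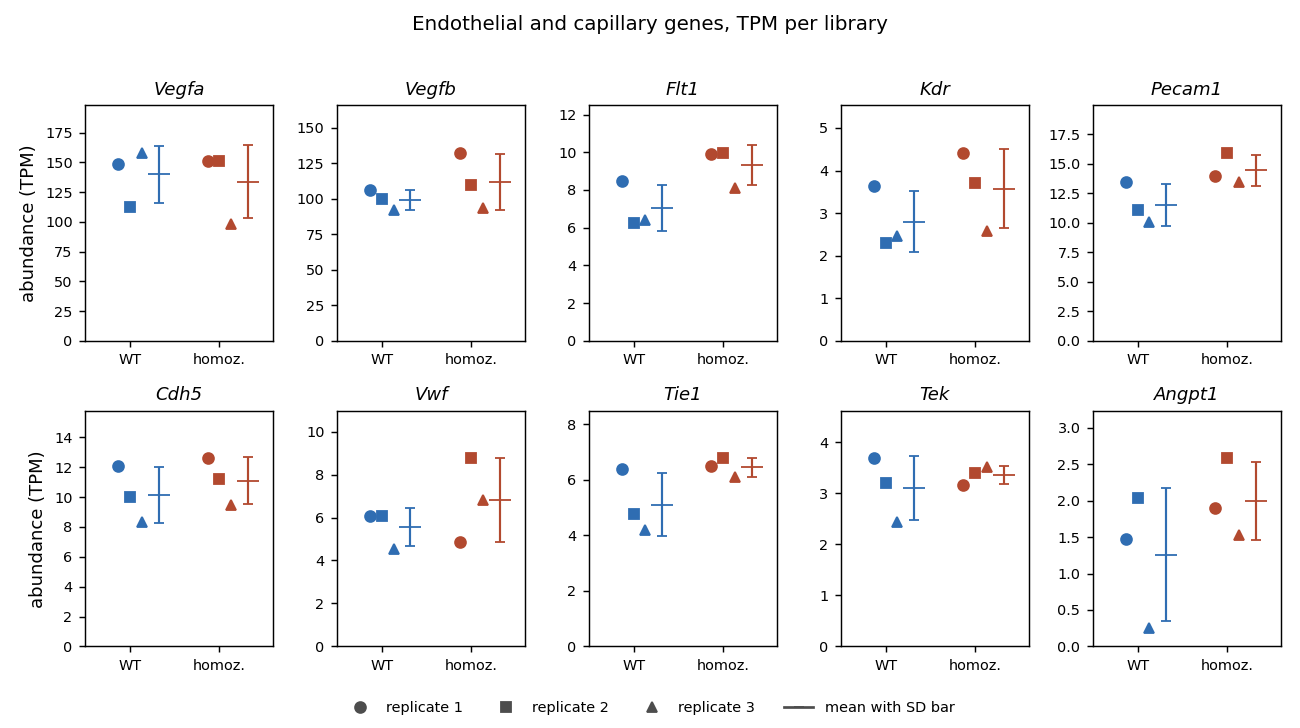
TPM of each of the 10 genes in the 6 libraries (points, 1 marker per replicate number; a linear axis from 0 for each gene), summed over isoforms, with the group mean and SD beside the points. Homozygous and WT points interleave for all genes but Pecam1, where 13.47 TPM in the lowest homozygous library sits just above 13.43 TPM in the highest WT library.

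The levels formed tiers. Vegfa and Vegfb were the highest, between 91.7 and 158 TPM over all 6 libraries, and their ranges overlapped each other. Pecam1 and Cdh5 came next at 8.35 to 16.0 TPM, then Flt1, Vwf and Tie1 between 4.19 and 9.99 TPM, then Tek and Kdr between 2.30 and 4.42 TPM, and Angpt1 was the lowest at 0.258 to 2.58 TPM. In this order the ranges of neighbouring genes overlapped, except between Vegfb and Pecam1 and between Tie1 and Tek. In whole muscle, fewer endothelial cells and less RNA of these genes per cell cannot be told apart.

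Vegfa (chr17:46016993-46032369, minus strand) was the most abundant member by TPM summed over all its rows, of which coding rows held 38.1% to 44.9%. Homozygous muscle held 151, 151 and 98.4 TPM in its 3 libraries, and WT muscle 149, 113 and 158 TPM. A single library in each group was low, homozygous replicate 3 and WT replicate 2, and the groups overlapped over almost their whole range. The means were 134 ± 30.6 TPM (SD, n = 3) and 139.8 ± 24.1 TPM (SD, n = 3), and the fold change was -0.08 on the log2(TPM + 1) scale, with an SE of 0.21, a 95% interval of -0.57 to 0.41 and an adjusted p of 0.818 by limma. It was 0.13 without homozygous replicate 3, 0.02 without WT replicate 3 and -0.22 without WT replicate 2, so its sign rested on single libraries.

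Vegfb (chr19:6982473-6987651, minus strand) stood at 132, 109 and 93.7 TPM in homozygous muscle against 106, 99.9 and 91.7 TPM in WT muscle. Homozygous replicates 1 and 2 lay above the WT range and replicate 3 within it. Mean levels were 112 ± 19.5 (homozygous) and 99.3 ± 7.20 TPM (WT; SD, n = 3 each), with a fold change of 0.16 (log2), an interval of -0.20 to 0.52 and an adjusted p of 0.508 by limma. With 1 library left out it ran from 0.03 (homozygous replicate 1) to 0.28 (homozygous replicate 3). The log2 ratio of Vegfa to Vegfb within a library was 0.19, 0.47 and 0.07 in homozygous muscle against 0.49, 0.17 and 0.79 in WT muscle. Summed over all rows, Vegfa was thus above Vegfb in all 6, and the groups overlapped. Coding rows held 38.1% to 44.9% of Vegfa TPM and 98.3% to 100% of Vegfb TPM, so on coding rows Vegfb was above Vegfa in all 6.

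Flt1 (chr5:147561604-147726011, minus strand) had the smallest p of the members. Its level was 9.93, 9.99 and 8.11 TPM in homozygous muscle against 8.48, 6.24 and 6.42 TPM in WT muscle. WT replicate 1 lay between homozygous replicate 3 and the others, so the groups overlapped by that library. Mean levels were 9.34 ± 1.07 (homozygous) and 7.05 ± 1.24 TPM (WT; SD, n = 3 each), the fold change was 0.37 (log2; SE 0.17; interval -0.015 to 0.75), and limma's p was 0.0573 before and 0.216 after adjustment over all genes.

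Kdr (chr5:75932827-75978458, minus strand), on the same chromosome, was lower than Flt1 in every library. It stood at 4.42, 3.71 and 2.59 TPM in homozygous muscle against 3.63, 2.30 and 2.47 TPM in WT muscle. The third homozygous library lay inside the WT range, and the means of 3.58 ± 0.924 and 2.80 ± 0.722 TPM (SD, n = 3 each) gave a fold change of 0.26 (log2; interval -0.23 to 0.76; adjusted p = 0.431 by limma). That value was 0.13 without homozygous replicate 1 and 0.43 without homozygous replicate 3. The log2 ratio of Kdr to Flt1 ran from -1.65 to -1.17 in homozygous muscle and from -1.44 to -1.22 in WT muscle, with a difference of means of -0.07, so that no shift between the receptors was detectable.

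**Figure D2:**
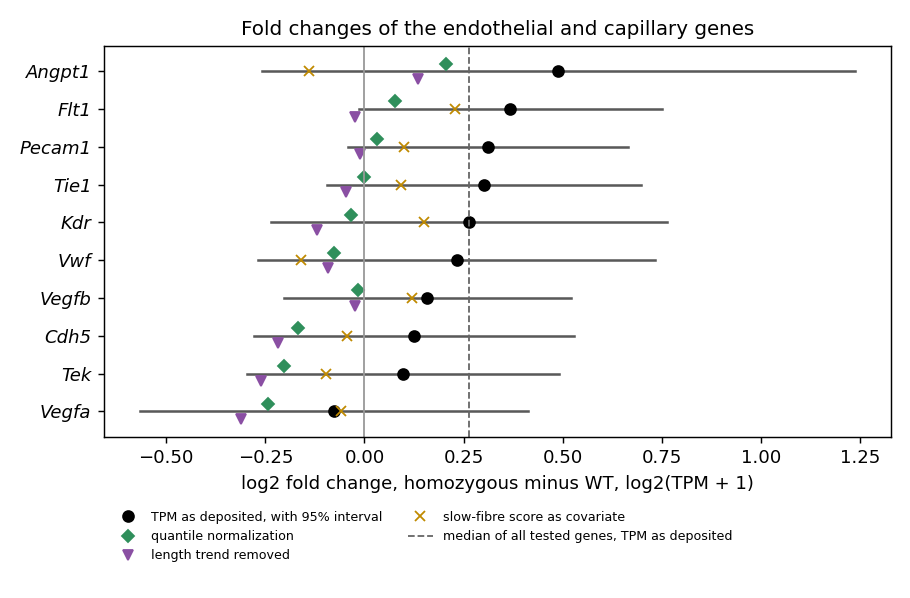
Fold change of each of the 10 genes, homozygous against WT, on the log2(TPM + 1) scale (points) with 95% intervals from limma (lines), the same fold change under 3 alternatives (quantile normalization, length trend removed, slow-fibre score as covariate; coloured markers), and the median of all 11099 genes tested (dashed line, 0.26). All 10 intervals include 0, and all include the all-gene median.

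In all, 15 ratios within a library were compared. Those between members are log2 ratios of TPM, which do not move when a whole library is scaled up or down. Those of the 10 members to the mean of other endothelial genes used log2(TPM + 1), and scaling can move these for low genes. The ratio of Vegfa to Flt1, the ligand to its decoy receptor, was 15.2, 15.2 and 12.1 TPM of Vegfa per TPM of Flt1 in homozygous muscle against 17.5, 18.0 and 24.6 in WT muscle. Every homozygous library was below every WT library, and the highest ratio was that of WT replicate 3. On the log2 scale the means were 3.82 ± 0.188 and 4.31 ± 0.272 (SD, n = 3 each), a difference of -0.49. The exact permutation test gave p = 0.1, two-sided, the smallest that 3 against 3 libraries allow, and an adjusted p of 0.5 over the 15 ratios.

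Flt1 transcripts are much longer than those of Vegfa, at a mean of 6528 and 1740 nt weighted by TPM, and long genes were low in WT replicate 3. With the trend of transcript length removed from each library the difference in the ratio was -0.29, and with quantile normalization it was -0.32. Both are on log2(TPM + 1), unlike the -0.49 above, and the part of that change of scale was not tested. Without WT replicate 3, on log2 of TPM, the difference was -0.34. In each of these settings the homozygous libraries stayed below the WT libraries. The ratio of the Vegfa middle form to the Flt1 membrane form, computed after the values were seen, differed by -0.57 in the same direction, again with no overlap. It was 3.17, 3.05 and 2.66 (log2) in homozygous muscle against 3.24, 3.20 and 4.14 in WT muscle, highest in WT replicate 3. To the soluble form the difference was -0.37, and the highest homozygous value of 4.060 nearly met the lowest WT value of 4.062. Neither ratio of forms was recomputed with the length trend removed.

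The other ratios that separated the groups were those of Tek to Tie1 and of Flt1 to the mean of 34 other endothelial genes, which are described with those genes below. The remaining 12 overlapped. Flt1 is part of the ratio to the endothelial mean and of Vegfa to Flt1, so these are not separate results. No share over other gene pairs was computed to set beside the 3 ratios without overlap. Vegfa to Kdr, added after the values were seen, was 5.10, 5.35 and 5.25 (log2) in homozygous muscle against 5.36, 5.61 and 6.0 in WT muscle, but it overlapped once the length trend was removed.

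**Figure D3:**
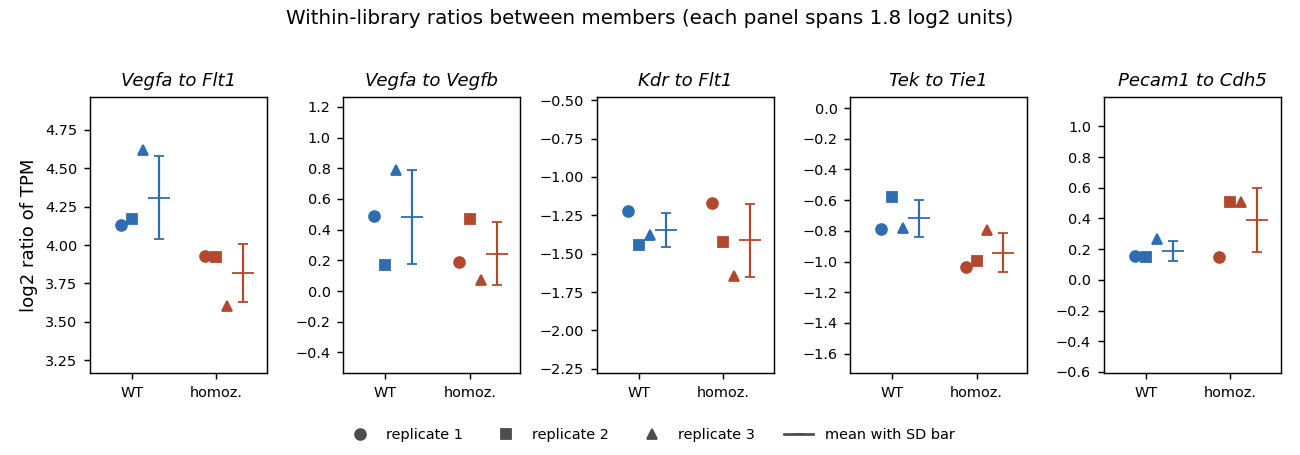
Within-library log2 ratios of TPM in the 6 libraries (points) with the group mean and SD beside them, each panel spanning the same height. The ratio of Vegfa to Flt1 lies between 3.60 and 3.93 in homozygous muscle and between 4.13 and 4.62 in WT muscle.

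Pecam1 (chr11:106654217-106750628, minus strand), which encodes an adhesion molecule of endothelial cells and platelets, was the member whose groups did not overlap. Homozygous muscle held 13.99, 16.0 and 13.47 TPM, and WT muscle 13.43, 11.1 and 10.04 TPM. The gap between the groups was 13.47 against 13.43 TPM, far less than the spread within either. Mean levels were 14.5 ± 1.32 (homozygous) and 11.5 ± 1.74 TPM (WT; SD, n = 3 each), the fold change was 0.31 (log2; SE 0.15; interval -0.04 to 0.66), and limma's p was 0.0756, or 0.238 adjusted.

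Cdh5 (chr8:104101625-104144511, plus strand) encodes VE-cadherin, the cadherin of endothelial junctions. Its levels were 12.6, 11.2 and 9.49 TPM in homozygous muscle against 12.1, 9.98 and 8.35 TPM in WT muscle, which interleaved throughout. The means of 11.1 ± 1.56 and 10.1 ± 1.87 TPM (SD, n = 3 each) gave a fold change of 0.13 (log2; interval -0.28 to 0.53; adjusted p = 0.638 by limma). The fold change was 0.0063 without WT replicate 3, 0.04 without homozygous replicate 1 and 0.25 without WT replicate 1. Relative to the mean log2 level of the 34 other endothelial genes, Cdh5 stood at 0.19, 0.09 and -0.01 in homozygous muscle against 0.21, 0.15 and -0.0037 in WT muscle, a difference of -0.03. The log2 ratio of Pecam1 to Cdh5 differed by 0.20 between the groups, which overlapped.

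Vwf (chr6:125546774-125686679, plus strand) was spread widely, at 4.85, 8.76 and 6.80 TPM in homozygous muscle against 6.06, 6.06 and 4.51 TPM in WT muscle. The lowest homozygous library lay below 2 of the WT libraries. Mean levels were 6.80 ± 1.95 (homozygous) and 5.54 ± 0.893 TPM (WT; SD, n = 3 each), with a fold change of 0.23 (log2; interval -0.27 to 0.73; adjusted p = 0.484 by limma). It was 0.06 without homozygous replicate 2, the highest library, 0.11 without WT replicate 3 and 0.42 without homozygous replicate 1. Coding rows held 11.8% to 24.2% of Vwf TPM over all libraries, and the full-length row stood at 0.359 to 1.68 TPM. A row annotated for nonsense-mediated decay held 39.1% to 69.1%, so most of the TPM came from rows not annotated as protein-coding. The full-length row (8834 nt) held 50.0 to 206 estimated fragments a library, and the decay row (2686 nt) 71.7 to 159. Platelets carry Vwf too. Of 5 platelet genes 3 passed the filter on low values, none was at 0 in every library, and their summed level was 11.8 to 14.4 TPM in homozygous muscle against 5.54 to 11.5 TPM in WT muscle. The largest part was Pf4, with a mean of 8.60 TPM over all libraries. Ppbp and Gp9, which did not pass the filter, had means of 0.10 and 0.044 TPM (all named after their values were seen). Red cell genes, which track retained blood, summed to 536 to 781 and 476 to 851 TPM, and overlapped. What part platelets had in the Vwf level was not tested.

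In the angiopoietin system the receptors stood above their ligand. Tie1 (chr4:118471191-118490061, minus strand) was at 6.48, 6.78 and 6.09 TPM in homozygous muscle against 6.37, 4.77 and 4.19 TPM in WT muscle. The homozygous libraries lay close together, and WT replicate 1 fell among them. Mean levels were 6.45 ± 0.345 (homozygous) and 5.11 ± 1.13 TPM (WT; SD, n = 3 each), with a fold change of 0.30 (log2; interval -0.09 to 0.70; adjusted p = 0.286 by limma), or 0.19 without WT replicate 3.

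Tek (chr4:94739289-94874976, plus strand), the angiopoietin receptor proper, was at 3.17, 3.40 and 3.51 TPM in homozygous muscle against 3.69, 3.20 and 2.43 TPM in WT muscle. The homozygous values lay wholly within the WT range. Mean levels were 3.36 ± 0.175 (homozygous) and 3.10 ± 0.632 TPM (WT; SD, n = 3 each), and the fold change was 0.10 (log2; interval -0.30 to 0.49; adjusted p = 0.710 by limma), or -0.03 without WT replicate 3 and 0.20 without WT replicate 1. The log2 ratio of Tek to Tie1 was -1.03, -0.99 and -0.80 in homozygous muscle against -0.79, -0.58 and -0.78 in WT muscle. The groups stood side by side without overlap, and the means differed by -0.22 (exact permutation p = 0.1, adjusted p = 0.5 over 15 ratios). The ratio overlapped after quantile normalization, which was on log2(TPM + 1).

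Angpt1 (chr15:42424723-42676977, minus strand) was the least abundant member, with 1.89, 2.58 and 1.53 TPM in homozygous muscle against 1.48, 2.04 and 0.258 TPM in WT muscle. WT replicate 3 was far below the other 5 libraries and rested on about 17 estimated fragments, against 90.0 to 149.8 in the others. Mean levels were 2.0 ± 0.536 (homozygous) and 1.26 ± 0.909 TPM (WT; SD, n = 3 each), with a fold change of 0.49 (log2; SE 0.32; interval -0.26 to 1.24; adjusted p = 0.344 by limma). It was 0.11 without WT replicate 3 and 0.75 without WT replicate 2.

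Among isoform rows, 46 of the members' 54 were above 0 in at least 1 library, and 26 passed the filter on low values and were tested. None passed an adjusted p under 0.05 in limma, beside 0.0425% of all 21165 isoforms. At an unadjusted p under 0.05, 1 of the 26, the Vegfa row given below, was higher, beside 14.2% of all isoforms, and 0 were lower, beside 1.52%. Homozygous libraries lay wholly above WT for 4 of the 26, beside 25.6% of all isoforms, and below for 0, beside 2.11%. Those 4 were rows of Flt1, Pecam1, Tie1 and Vegfa. The Tie1 row was under 1 TPM in all 3 WT libraries and passed the filter through the homozygous libraries alone, so it had to differ and its place in the count is no support.

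The Flt1 row was the membrane receptor, at 6.20, 6.55 and 5.52 TPM in homozygous muscle against 5.39, 4.04 and 3.40 TPM in WT muscle (fold change 0.44, log2; adjusted p = 0.338 by limma). The soluble form stood at 3.61, 3.25 and 2.45 TPM and at 3.05, 2.16 and 2.16 TPM, which overlapped (fold change 0.25, log2; adjusted p = 0.553 by limma). Its share of both forms was 36.8%, 33.1% and 30.8% in homozygous muscle against 36.1%, 34.8% and 38.9% in WT muscle. The soluble form was thus the minor form in every library, and its share did not separate the genotypes.

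The Vegfa row was a retained-intron transcript with no coding sequence, at 7.83, 6.20 and 6.57 TPM in homozygous muscle against 3.17, 4.81 and 5.06 TPM in WT muscle (fold change 0.57, log2; SE 0.21; adjusted p = 0.295 by limma). The 5 retained-intron rows of Vegfa together held 55.1% to 61.9% of its TPM in the 6 libraries, so most of the Vegfa TPM came from rows with no coding sequence. Those rows are short (463 to 874 nt), and TPM divides by length. The middle form (3451 nt) held 1657 to 3377 of the gene's 2292 to 4530 estimated fragments, and so most of them in every library. The retained-intron row with the most fragments held 149 to 354. How shared reads were split between rows was not tested. Of the coding TPM the middle form held 84.3%, 93.8% and 81.7% in homozygous muscle against 82.3%, 78.8% and 84.6% in WT muscle. The long form held 3.12% to 10.8% and the short form 0% to 11.9%, both with overlap. The balance of VEGF-A forms did not separate the groups.

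The long form of Vegfb held 36.4%, 34.9% and 41.7% of its coding TPM in homozygous muscle against 37.3%, 38.4% and 41.1% in WT muscle. These values interleaved, and the short form, which binds heparan sulfate, was the major one in all 6.

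The share of each isoform in its gene could be compared for 23 rows of 7 members. Of these, 5 did not overlap between the groups, beside 19.1% of all isoforms compared in this way, in Pecam1, Tek and Tie1. Homozygous shares were above WT for the Tek rows with the cassette exon (2 rows) and for the Tie1 row with the retained intron, and below for the spliced Tie1 row and for the Pecam1 row without its large cassette exon. The filter that admitted the Tie1 retained-intron row through the homozygous group bears on both Tie1 shares. Each reached the smallest exact permutation p of 0.1 and an adjusted p of 0.46 over the 23.

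The Tek row that skips the cassette exon lay outside that count, because it did not pass the filter on low values, and was singled out after its values were seen. It was at 0.576, 0 and 0 TPM in homozygous muscle against 1.08, 0.924 and 1.23 TPM in WT muscle, or about 46.5, 0 and 0 against 80.1, 60.2 and 86.7 estimated fragments. All 3 WT libraries had it and 2 of the homozygous libraries were listed at 0, while the total of Tek overlapped between the groups. Its share of Tek was 18.2%, 0% and 0% against 29.4%, 28.9% and 50.6%, with means of 6.07% ± 10.5 and 36.3% ± 12.4 (SD, n = 3 each), and without WT replicate 3 the WT mean was 29.2%. With no filter limma gave a fold change of -0.84 (log2; SE 0.24; adjusted p = 0.636). The rows of Tek also differ at their ends, and a value listed at 0 can be a failed split of shared reads between rows, which was not tested.

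The Tie1 row with the retained intron held 15.7%, 18.2% and 19.7% of Tie1 in homozygous muscle against 8.38%, 15.4% and 11.2% in WT muscle. The groups did not overlap, though homozygous replicate 1 and WT replicate 2 nearly met. The means were 17.9% ± 2.04 and 11.7% ± 3.54 (SD, n = 3 each), on 70.4 to 76.3 and 30.7 to 44.5 estimated fragments a library. The split of shared reads between the Tie1 rows was not tested.

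For Pecam1, the row that skips a cassette exon of 303 nt held 12.1%, 21.9% and 20.99% of the coding TPM in homozygous muscle against 29.0%, 27.9% and 27.5% in WT muscle. The WT libraries were close together and all above the homozygous ones, with means of 18.3% ± 5.40 and 28.1% ± 0.813 (SD, n = 3 each). The TPM of this row overlapped, at 1.66, 3.38 and 2.72 in homozygous muscle against 3.85, 3.08 and 2.67 in WT muscle. Its fold change was -0.25 (log2, adjusted p = 0.608 by limma). How shared reads were split between the Pecam1 rows was not tested. Rows that hold a small exon of 57 nt near the end of the coding sequence made up 56.7% to 60.2% in homozygous muscle against 53.5% to 62.9% in WT muscle, and overlapped.

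**Figure D4:**
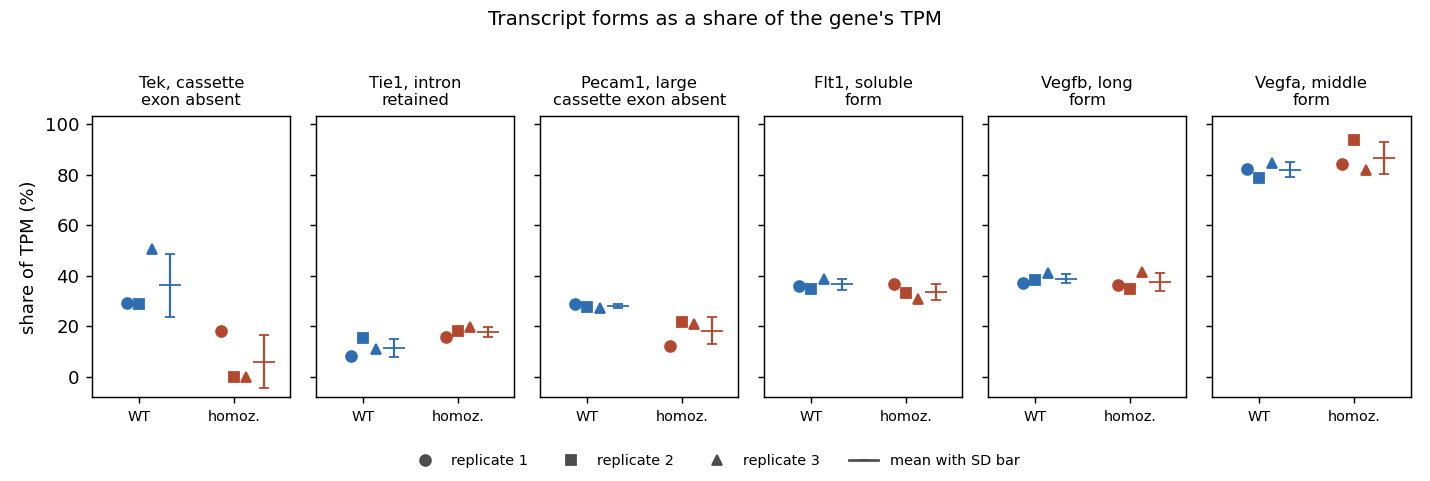
Share of each named form in the TPM stated for it (percent) in the 6 libraries (points), with the group mean and SD beside the points. The Tek form without its cassette exon lies at 0% to 18.2% in homozygous muscle against 28.9% to 50.6% in WT muscle, while the Flt1 soluble and Vegfb long forms overlap.

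The wider gene groups gave no call either. Of 10 other VEGF and angiopoietin genes, 7 passed the filter; 6 had a fold change above 0 and 1 below, none passed the adjusted or the unadjusted threshold in limma, and the median was 0.29 (log2) beside 0.26 for all genes. Sema3c, a secreted guidance signal, stood at 7.96 ± 1.29 and 6.45 ± 3.22 TPM (SD, n = 3 each; homozygous, then WT), and Vegfd, a ligand of the lymphatic receptor, at 3.67 ± 0.971 and 2.48 ± 0.591 TPM (fold change 0.41, log2; adjusted p = 0.258 by limma). Ptprb, a phosphatase that restrains TEK, stood at 5.28 ± 0.793 and 4.05 ± 0.859 TPM, and Plxnd1, a semaphorin receptor of endothelium, at 14.2 ± 5.18 and 14.6 ± 0.568 TPM. Vegfc, Flt4 and Angpt2 were too low to be tested.

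Of 36 other endothelial genes 34 were tested, 27 with a fold change above 0 and 7 below, with a median of 0.13 (log2), under that of all genes. None passed the adjusted threshold. Of the 34, 2 passed the unadjusted one (Cldn5 and Sox17), beside 24.3% of all genes, and 4 did not overlap between the groups (Cldn5, Sox17, Egfl7 and Nos3, named after their values were seen), beside 35.5% of all genes. Fabp4, a fatty acid chaperone of muscle capillaries and also a marker of fat cells, was at 154 ± 23.0 and 156 ± 14.0 TPM (SD, n = 3 each), and the water channel gene Aqp1 at 80.0 ± 21.7 and 81.5 ± 18.9 TPM. What part fat cells had in the Fabp4 level was not tested. Ly6c1, a surface antigen of mouse endothelium, was at 77.2 ± 3.62 and 68.5 ± 9.27 TPM, and Rgcc, a cell cycle regulator, at 75.6 ± 20.6 and 51.8 ± 15.2 TPM (fold change 0.54, log2; adjusted p = 0.232 by limma). The largest fold change was that of the tight-junction gene Cldn5, at 3.96, 6.01 and 4.97 TPM in homozygous muscle against 3.54, 2.78 and 2.62 TPM in WT muscle (0.58, log2; adjusted p = 0.168 by limma). Against the mean of these 34 genes, Flt1 stood at -0.13, -0.06 and -0.21 (log2) in homozygous muscle against -0.26, -0.45 and -0.34 in WT muscle. Every homozygous library was above every WT library, with a difference of 0.21 (exact permutation p = 0.1, adjusted p = 0.5). None of the other 9 members separated the groups on this measure.

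Rescaling lowered the median of the members along with that of all genes. With quantile normalization, 3 members had a fold change above 0 and 7 below, and the other endothelial genes 9 and 25, with medians of -0.03 and -0.15 (log2) beside -0.01 for all genes. After removal of the length trend, 1 member was above 0 and 9 below, with a median of -0.07 beside -0.01 for all genes. In that setting 2 of the 10 members lay above the all-gene median.

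Regulators of the ligands were also tested. All 9 had a fold change above 0, beside 85.8% of all genes, with a median of 0.16 (log2), and with quantile normalization 3 were above 0 and 6 below. At an unadjusted p under 0.05 there were 2, beside 24.3% of all genes, and 0 adjusted. The most abundant were Egln1, another prolyl hydroxylase gene, at 102 ± 4.13 and 82.2 ± 14.7 TPM (SD, n = 3 each), and Esrra, a nuclear receptor of oxidative metabolism, at 59.8 ± 10.4 and 54.7 ± 3.77 TPM. Egln3, an oxygen-sensing prolyl hydroxylase gene that is itself induced by hypoxia-inducible factors, was at 26.6, 54.0 and 48.9 TPM in homozygous muscle against 20.4, 18.4 and 5.71 TPM in WT muscle (1.59, log2; SE 0.47; adjusted p = 0.168 by limma). Arnt, the partner of those factors, was at 13.6, 18.1 and 15.1 TPM and at 10.8, 10.4 and 6.95 TPM (0.69, log2; adjusted p = 0.168 by limma). With array weights Arnt passed (0.57, log2; adjusted p = 0.0463 by limma), as did 810 of all 11099 genes under those weights. In 3 of the 9 regulators (Egln1, Egln3 and Arnt) all homozygous libraries lay above all WT libraries, beside 34.7% of all genes. Vegfa, a known target of hypoxia-inducible factors, overlapped between the groups, and a link between these levels was not tested.

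Vessel and other cell markers were summed for each library. The list of 10 general endothelial markers, which holds 6 of the members, summed to 101 to 120 TPM in homozygous muscle against 79.6 to 104 TPM in WT muscle. Arterial markers summed to 15.2 to 20.99 and 10.5 to 12.8 TPM, and venous markers to 16.7 to 21.5 and 12.4 to 17.8 TPM. Of 7 arterial markers 6 passed the filter, and Gja5 among them passed through the homozygous libraries alone, as Vcam1 did in the venous list. At an unadjusted p under 0.05 there were 3 of 6 arterial markers (Sox17, Sema3g and Dll4, named after their values were seen), beside 23.7% of all genes, and 0 adjusted. Pericyte and smooth muscle markers, of the cells that wrap the vessel, summed to 126 to 135 and 84.3 to 113 TPM, and 3 of 9 had an unadjusted p under 0.05, beside the same 23.7% (Abcc9, Kcnj8 and Myh11, named after their values were seen), with 0 adjusted. None of these markers was at 0 in every library. The slow-fibre markers, of the fibre type that is the most densely supplied with capillaries, summed to 1902 to 9726 TPM in homozygous muscle against 246 to 1741 TPM in WT muscle, without overlap. Their mean log2(TPM + 1), the slow-fibre score, did overlap, at 6.42, 8.95 and 6.91 in homozygous muscle against 6.46, 5.84 and 3.48 in WT muscle. Of the 11 markers 7 lay wholly above WT, beside 34.7% of all genes. By limma 1 had an unadjusted p under 0.05, beside 23.7%, and 0 adjusted. With a slow-fibre score as a covariate, 5 members had a fold change above 0 and 5 below, with a median of 0.02 (log2) beside 0.16 for all genes.

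**Figure D5:**
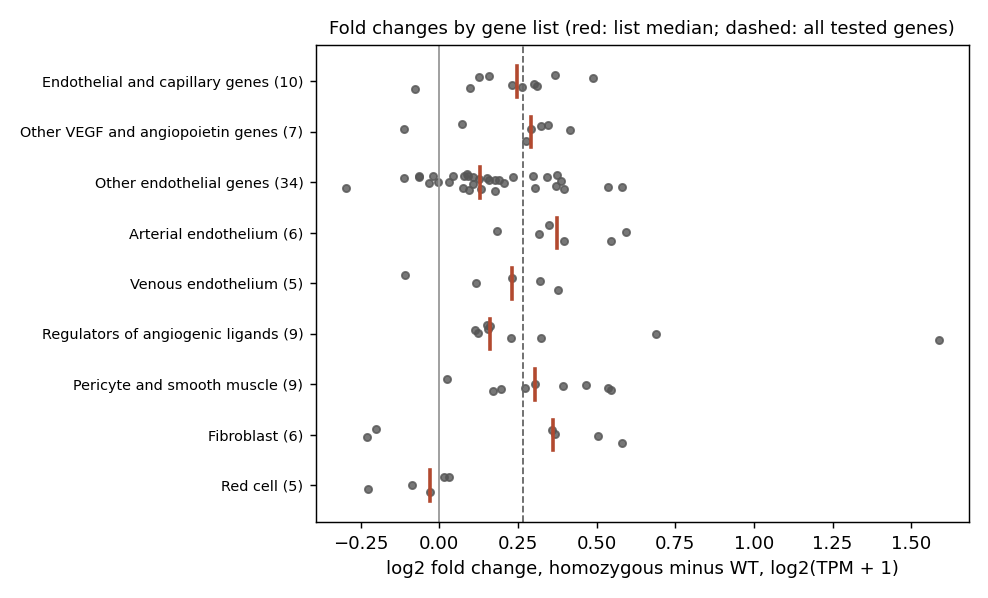
Fold change of each tested gene (points), homozygous against WT, on the log2(TPM + 1) scale, by gene list, with the list median as a red line and the all-gene median (0.26) as a dashed line. The median of the 10 members (0.25) sits beside it and that of the other endothelial genes (0.13) below it.

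The genes whose levels ran most like those of Cdh5 over the 6 libraries, after median centring, were Cnst (Pearson r = 0.992), Tiparp (0.985), Cdadc1 (0.984), H2-Q4 (0.974) and Cnnm4 (0.973). Among the members the closest to Cdh5 were Vegfb (0.865) and Kdr (0.833), and the farthest was Vwf (-0.28). Those most like Vegfa were Gm13532 (0.994), Traf3ip2 (0.989), Mcee (0.984), Lgals9 (0.983) and Pisd-ps2 (0.980). With 6 libraries and 11099 genes these are descriptions, and the libraries share depth and composition.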

How the data were processed

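Poly-A selected RNA of whole quadriceps was sequenced. The authors deposited 1 table of TPM, an estimated abundance per isoform that sums to 1000000 in each of 6 libraries, per the file headers. FastQC, Trimmomatic, HISAT2, kallisto and mm10 are named in the submitters' processing notes, with no role or version. Positions and sequences were taken from GENCODE M21 (GRCm38), which 99505 of 105129 rows matched with and 103635 without their version. TPM were summed per symbol, set to log2(TPM + 1), and filtered to genes that reached 1 TPM in 3 or more libraries. Genotypes were compared with limma 3.58.1 (R 4.3.3; trend, robust, genotype only, Benjamini-Hochberg over all genes). The design also held a test for counts, which was not needed. Fold changes are homozygous minus WT and understate those of low genes. Fragments were estimated from steps in low values, of which 65.8% to 67.6% lay within 0.03 of a whole number. The limma step was checked on simulated data. The members and gene lists were chosen with earlier results of these data known. Named genes were the members, the 5 most like Cdh5 and the 5 most like Vegfa, and from the lists of other VEGF, endothelial and regulator genes the 3 most abundant and the 2 of largest change. Other names are given as chosen after their values were seen. Same-numbered libraries did not deviate together (r = -0.07, 0.06 and -0.01).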

Additional observations from a re-analysis of the deposited data

How the results depend on the processing

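No member, member isoform, or gene of the other VEGF, angiopoietin and endothelial lists passed the threshold under any alternative run. In the other lists Arnt, Cd68 and Myh1 passed with array weights only. Over all genes the count of 0 became 810 with array weights (0.199 for WT replicate 3) and 0 to 2 with 1 library left out, 2 when WT replicate 1 was left out and 1 when it was replicate 2. Over all isoforms the count of 9 became 3 with quantile normalization, 5 with median centring, 0 with no filter, 4 with a pseudocount of 0.1, 5 with mitochondrial transcripts left out, 0 with the slow-fibre covariate, 4 after removal of the length trend, 14 with array weights, and 0 to 36 with 1 library left out, the highest without WT replicate 1. With a replicate block 0 genes and 0 isoforms passed; the numbers do not pair the libraries. Of 160 values of the members' fold changes under alternatives, 131 kept their sign. Leaving out the filter or adding a replicate block cannot move a fold change, so those values kept their sign by construction. Fold changes (log2) that changed it with the length trend removed were Pecam1 -0.0099, Cdh5 -0.22, Kdr -0.12, Flt1 -0.024, Vegfb -0.025, Tek -0.26, Tie1 -0.046 and Vwf -0.091. With quantile normalization they were Cdh5 -0.17, Kdr -0.035, Vegfb -0.016, Tek -0.20, Tie1 -0.0019 and Vwf -0.076, and with median centring Cdh5 -0.18, Kdr -0.037, Vegfb -0.14, Tek -0.20, Tie1 -0.00034 and Vwf -0.069. With the slow-fibre covariate they were Cdh5 -0.044, Tek -0.098, Vwf -0.16 and Angpt1 -0.14, and with array weights Cdh5 -0.061 and Tek -0.031. Vegfa was 0.13 without homozygous replicate 3 and 0.02 without WT replicate 3, and Tek -0.026 without WT replicate 3. The rescalings move the median of all genes from 0.26 to -0.01 (quantile, length) or -0.04 (median centring); the cause of the other changes was not tested. The sum over protein-coding isoforms, chosen after seeing the data, changed no sign. For Cdh5, Tek and Angpt1 it is the whole sum and could not.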
